A study of Mus musculus with 4 samples.

Results

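The baseline transcriptome of control mouse neural stem cells was described from the control library of a 4-library series, with every protein-coding and long non-coding RNA (lncRNA) gene ranked by its level. Of 55487 genes in the table, 31865 were ranked: 21894 protein-coding and 9971 lncRNA genes. Levels were in TPM (transcripts per 1000000 transcripts), a measure already divided by transcript length, so that levels of different genes within the library can be set side by side. The cells were primary cultures derived from the neocortex of E12.5 embryos and grown as neurospheres with bFGF and EGF. The control culture carried floxed Tut1 (Tut1f/f) and received an empty lipid nanoparticle (LNP), and its title calls it wild type. The other 3 libraries came from cultures that received LNP with Cre mRNA, namely Tut1f/f (Tut1 KO), p53f/f (Trp53 KO) and Tut1f/f;p53f/f (Double KO). They were used here to see how stable the control values were. Each group was 1 library, so no value has an error between cultures, no test was run, and what is described is 1 culture of 1 genotype. TPM keeps no depth, and the number of reads behind each value is unknown.

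A few facts of the series bear on the values. Where 4 values of a gene are given together, they are in the order control, Tut1 KO, Trp53 KO, Double KO. Tut1 was at 12.2, 29.8, 12.5 and 13.7 TPM, highest in the library labelled Tut1 KO. The floxed part of Tut1 is exon 2, so the whole-gene level need not fall after recombination and does not check the label. Trp53 was at 120, 100.4, 39.7 and 41.9 TPM in that order. Y-linked transcripts were present in the control and the Double KO and Xist in the other pair of libraries, so the cultures also differed in their sex chromosomes. An exact 0 in a TPM table can be a failed estimate, and such genes are given as listed at 0.

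Neural stem cells of the embryonic neocortex are radial glia. They hold a mixture of stem cell and astroglial transcripts, among them intermediate filaments, fatty acid binding proteins and glutamate transporters. They divide under EGF and FGF signals while effectors of Notch hold back proneural genes, and neurons arise from them by way of basal progenitors. In culture with EGF and FGF they are known to take on genes of the oligodendrocyte lineage. In a bulk library, fewer cells of a type and less RNA per cell cannot be told apart.

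The sequences just before the start of 4 abundant genes are shown because their products, which mark the cells or supply their energy, recur in the results. They are from the RefSeq promoter table (GRCm38.p6), each on the strand of its gene and ending at the RefSeq start or, for Nes and Fabp7, at the last base before the GENCODE gene. For Sox2 the RefSeq start lies upstream of the GENCODE gene, so its sequence does not adjoin the gene coordinates given with its level. The regions are chr3:87970993-87971077 (Nes, plus strand), chr3:34649895-34649994 (Sox2, plus), chr10:57784823-57784880 (Fabp7, plus) and chr12:111672339-111672438 (Ckb, minus). Capitals mark CCAAT or its reverse complement ATTGG, and TATAAA with its first base 40 to 20 bases before the start. The CCAAT letters were searched on both strands and TATAAA on the strand of the gene, in the 100 bases before the start, and no match overlapped another motif.
Nes: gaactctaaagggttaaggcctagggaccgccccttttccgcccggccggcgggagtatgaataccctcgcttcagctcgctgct
Sox2: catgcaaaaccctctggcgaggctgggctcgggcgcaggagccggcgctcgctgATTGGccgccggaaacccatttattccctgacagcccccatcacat
Fabp7: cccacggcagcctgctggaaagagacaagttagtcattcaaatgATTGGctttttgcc
Ckb: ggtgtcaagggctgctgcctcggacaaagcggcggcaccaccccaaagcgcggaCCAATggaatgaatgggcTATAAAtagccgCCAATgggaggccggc
Ckb held TATAAA 28 bases before the start and CCAAT at 2 places, Sox2 and Fabp7 held ATTGG once, and Nes held none of these letters. Of all 32851 promoters in that table, 1.99% held TATAAA in the same window and 18.9% held CCAAT or ATTGG in the same 100 bases. GC content was 48.0% for Fabp7 and 61.0 to 64.0% for the other three, against a median of 55.0% over the table. These are matches of letters only and say nothing of which factors bind.

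The markers given for these cells, Nes, Sox2, Fabp7 and Vim, were all high in the control. Fabp7 (ENSMUSG00000019874, chromosome 10, 57784881 to 57788450), the brain fatty acid binding protein of radial glia, was at 9441 TPM and ranked 7 of all genes. Over the libraries it was at 9441, 8095, 7902 and 9394 TPM. Vim (ENSMUSG00000026728, chromosome 2, 13573927 to 13582826), the intermediate filament vimentin, was at 1875, 2039, 1693 and 1742 TPM. Both genes thus varied by less than 2-fold over the libraries, and both were among the 100 highest genes. Nes (ENSMUSG00000004891, chromosome 3, 87971078 to 87980451), the filament nestin, was at 417, 392, 337 and 313 TPM. Sox2 (ENSMUSG00000074637, chromosome 3, 34650405 to 34652461), a transcription factor of neural stem cells, was at 370, 293, 324 and 385 TPM. Fabp7 stood 25.5 times above Sox2 in the control and between 24.4 and 27.7 times above it in the other libraries.

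**Figure D1:**
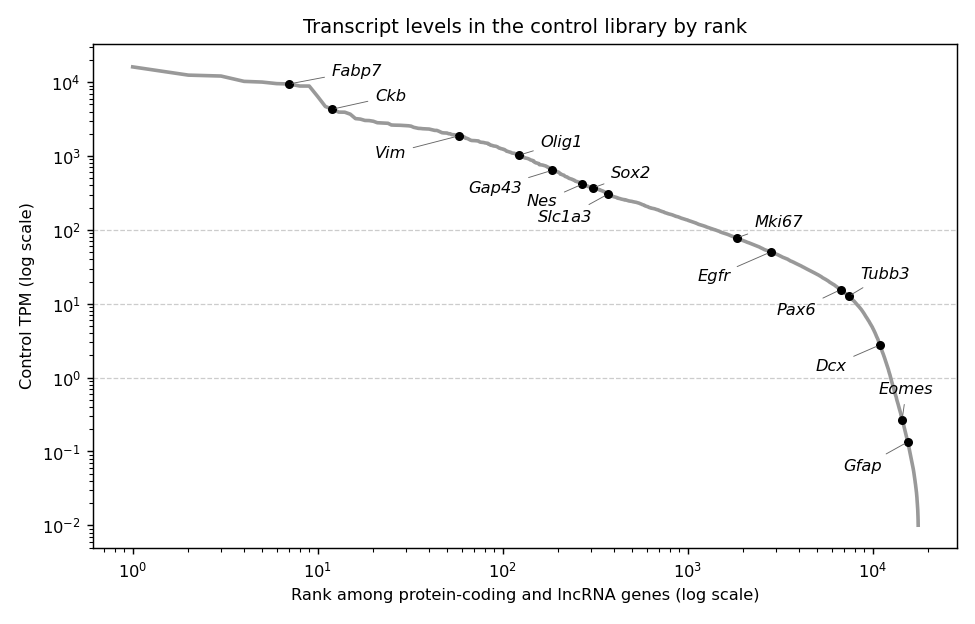
Control TPM (y axis, log scale) against rank among the protein-coding and lncRNA genes (x axis, log scale), with 15 genes named. Stem cell markers lie at the upper left, from Fabp7 at rank 7 to Sox2 at rank 308, while the neuronal gene Dcx and the astrocyte gene Gfap lie on the steep right end.

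The transcriptome was concentrated in a small part of the ranked genes. TPM of at least 1 was reached by 12505 genes (39.2%), of at least 10 by 8155 (25.6%) and of at least 100 by 1409 (4.42%). Among protein-coding genes 11798 (53.9%) reached 1 TPM, against 707 lncRNA genes. The counts of protein-coding list and family members at 1 TPM given later are to be set beside this 53.9%. The 100 highest genes held 33.6% of the TPM of ranked genes and the 1000 highest 65.8%, and it took the 330 highest to equal the sum of all others. In the other libraries the 100 highest held 33.2 to 34.6%, and 281 to 334 genes equalled the rest.

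Translation and respiration led the ranking. Of the 20 highest protein-coding genes, 9 were encoded by the mitochondrial genome and 7 were cytosolic ribosomal proteins. The mitochondrial genes were mt-Co1 (16075 TPM), mt-Co2 (12439), mt-Atp6 (12088), mt-Atp8 (10239), mt-Cytb (10021), mt-Nd1 (8856), mt-Co3 (6380), mt-Nd2 (3916) and mt-Nd4 (3210), which encode subunits of the respiratory chain and ATP synthase. The ribosomal genes were Rpl23a (4680 TPM), Rps15 (3927), Rps2 (3683), Rps14 (3159), Rps3a1 (3030), Rps26 (3016) and Rplp1 (2952). The remaining 4 were Eef1a1 (9548 TPM), an elongation factor of translation, Fabp7, Tmsb10 (8846 TPM), an actin-binding thymosin, and Ckb (4305 TPM), the brain creatine kinase. None of the 20 moved 2-fold over the 4 libraries, and 92.2% of all 8609 genes compared stayed within 2-fold.

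As families, the 85 ribosomal protein genes held 15.4% of the TPM of ranked genes with a median of 1394 TPM, and the 13 mitochondrially encoded proteins held 10.4% with a median of 6380 TPM. Reads of mitochondrial genes can be divided with nuclear copies, and 7 of the 13 share exonic bases with a neighbour. Subunits of the respiratory chain encoded in the nucleus had a median of 245 TPM over 80 gene IDs, led by Atp5b (1621 TPM), Cox7c (1139 TPM) and Atp5g3 (1052 TPM). The heart and testis forms of this family, Cox8b, Cox8c and Cox7b2, were listed at 0. Proteasome subunits had a median of 207 TPM, and their testis and thymus forms, Psma8 and Psmb11, were listed at 0. Cox6b2, another testis form, was at 91.6, 141, 72.1 and 49.6 TPM over the libraries. A second gene ID named Atp5o was also listed at 0 beside the main one at 566 TPM.

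Among the 100 highest genes, 50 were ribosomal, 12 mitochondrially encoded and 38 of other kinds. Those 38 included Tmsb4x (2807 TPM), Actb (2613 TPM) and Actg1 (2281 TPM) of the actin cytoskeleton, and the tubulins Tuba1a (2174 TPM) and Tubb2b (1612 TPM). They also included Ptn (2068 TPM), the secreted growth factor pleiotrophin, and Fabp5 (1707 TPM), a second fatty acid binding protein. Serpine2 (1360 TPM), a secreted protease inhibitor of glia, was a further secreted product among them.

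The 24 radial glia and neural stem cell genes all reached 1 TPM, 21 reached 10 TPM and 10 reached 100 TPM, with a median of 80.8 TPM. Over all ranked genes the median was 0.0947 TPM, and over genes with TPM of at least 1 it was 17.7 TPM. The list genes are all protein-coding, whereas the ranked genes include 9971 lncRNA genes, which lower that first median. Besides Fabp7, Vim, Nes and Sox2, the highest were Dbi (1608 TPM), a ligand for GABA-A receptors and acyl-CoA binding protein, and Ptprz1 (381 TPM), a receptor phosphatase that binds pleiotrophin. Tnc (214 TPM), a matrix protein of the stem cell niche, Ddah1 (170 TPM), Sox9 (148 TPM) and Sox3 (102 TPM) followed. Prom1 (10.6 TPM), Hmga2 (9.69 TPM), Sox1 (8.05 TPM) and Thrsp (4.84 TPM) were the lowest, so the filament and lipid binding genes of radial glia were far above the chromatin regulator Hmga2 and the surface marker Prom1. Of 23 members high enough for the comparison, 21 stayed within 2-fold over the 4 libraries, and Ednrb and Thrsp did not. That is near the share among all 8609 genes compared, of which 92.2% stayed within 2-fold.

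Ednrb, the endothelin receptor type B of radial glia, was at 20.8, 83.7, 17.4 and 75.6 TPM over the libraries. The libraries thus fell into a low and a high pair that followed the Tut1 labels and not the Trp53 labels, with 1 culture behind each value. Thrsp, a regulator of lipid synthesis, was lowest in the control, at 4.84 TPM, against 11.4 to 17.4 TPM in the other libraries.

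The Sox family gave 13 of 19 genes at 1 TPM or more. The genes of stem cells and progenitors led it, with Sox2 at 370 TPM, Sox4 at 176 TPM, Sox9 at 148 TPM, Sox3 at 102 TPM and Sox8 at 74.7 TPM. Sox17, a gene of endoderm and endothelium, was listed at 0, and Sox7 and Sox18 of endothelium were at 0.217 and 0.0554 TPM. None of the 11 Sox genes compared moved 2-fold over the libraries, where 92.2% of all 8609 genes compared did not move either.

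Of 28 astroglial genes, 25 reached 1 TPM and 21 reached 10 TPM, with a median of 54.7 TPM. The metallothioneins Mt1 (670 TPM), Mt3 (336 TPM) and Mt2 (187 TPM), Slc1a3 (305 TPM), the glutamate transporter GLAST of radial glia and astrocytes, and Cst3 (267 TPM), a secreted protease inhibitor, were the highest. Glul (170 TPM), glutamine synthetase, Aldoc (163 TPM), the brain aldolase, and Aldh1l1 (77.9 TPM), a folate enzyme used as an astrocyte marker, were also well above the median of expressed genes. In contrast, Gfap, the filament of mature astrocytes, was at 0.135 TPM, Aqp4, their water channel, at 0.542 TPM, and Gjb6, a gap junction protein, was listed at 0. Slc1a2, the glutamate transporter of mature astrocytes, was at 7.24 TPM, and Slc1a3 stood 42.2 times above it. Gfap stayed below 1 TPM in each library, at 0.135, 0.966, 0.238 and 0.688 TPM.

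The nuclear factor I genes, which mark the glial competence of radial glia, were at 76.6 TPM (Nfib), 38.0 TPM (Nfia) and 26.9 TPM (Nfix). Nfix was the least stable of the astroglial list, at 26.9, 4.17, 10.6 and 32.4 TPM over the 4 libraries. Apoe, the lipid carrier of astrocytes, was at 37.6, 96.4, 20.6 and 32.5 TPM, and Sparcl1, a secreted matrix protein, at 92.8, 139, 254 and 142 TPM. The other 19 of 22 astroglial genes compared stayed within 2-fold, as did 92.2% of all genes compared.

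Transcripts of basal progenitors were mixed. Sox4 (176 TPM), Btg2 (60.6 TPM), an antiproliferative gene of neurogenic divisions, Sox11 (53.2 TPM) and Hes6 (48.6 TPM) were present. Eomes (0.270 TPM), the factor that defines cortical basal progenitors, and Neurog2 (0.652 TPM), the main proneural factor of the dorsal telencephalon, were below 1 TPM, and Neurog1 and Nhlh1 were listed at 0. Eomes was at 0.0692 to 0.174 TPM in the other libraries, so it was below 1 TPM in all 4.

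Neuronal genes had a median of 2.07 TPM. Of these 25 genes 14 reached 1 TPM and 11 did not, near the 53.9% of all protein-coding genes that reached it. The growth cone protein gene Gap43 (640 TPM) and the microtubule protein gene Map2 (208 TPM) stood apart from the rest. The next were Syp (21.7 TPM), Elavl4 (19.8 TPM) and Tubb3 (12.6 TPM), the neuronal tubulin, and Map2 stood 16.5 times above Tubb3. Dcx, a microtubule protein of migrating neurons, was at 2.77 TPM in the control and at 2.42 to 3.13 TPM in the other libraries. Stmn2 (0.0442 TPM), Tbr1 (0.0225 TPM), Nefl (0.0928 TPM) and Slc17a7 (0.0839 TPM), genes of postmitotic neurons, were near 0, and Neurod2, Neurod6, Slc17a6 and Slc32a1 were listed at 0. Elavl4, a neuronal RNA-binding protein, was at 0.370 TPM in the Tut1 KO library against 16.9 to 22.0 TPM in the control and the others, and Snap25, a vesicle fusion protein, was at 3.38 TPM there against 6.06 to 10.5 TPM.

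Genes of the oligodendrocyte lineage were high for the early factors and mostly low for myelin. Olig1 (1029 TPM, rank 123) and Olig2 (619 TPM, rank 196), the factors that open the lineage, were among the highest transcription factor genes of these lists. Olig2 was at 619, 530, 570 and 583 TPM over the libraries, and was thus above Sox2 in each library. Genes of oligodendrocyte precursors followed, with Cspg4 (67.6 TPM), Nkx2-2 (53.8 TPM) and Pdgfra (39.5 TPM). Sox10, which drives later steps, was at 6.16 TPM, and Olig2 stood 100.4 times above it in the control and 54.0 to 98.1 times above it in the other libraries. Of the myelin genes, Cnp, which encodes a myelin enzyme, was at 114 TPM, whereas others were low, with Mbp at 0.937 TPM and Mog at 0.0189 TPM, and Mag was listed at 0. Bcas1, a gene of early myelinating cells, was at 24.5, 60.8, 27.9 and 49.3 TPM over the libraries, higher in both libraries labelled as lacking Tut1.

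**Figure D2:**
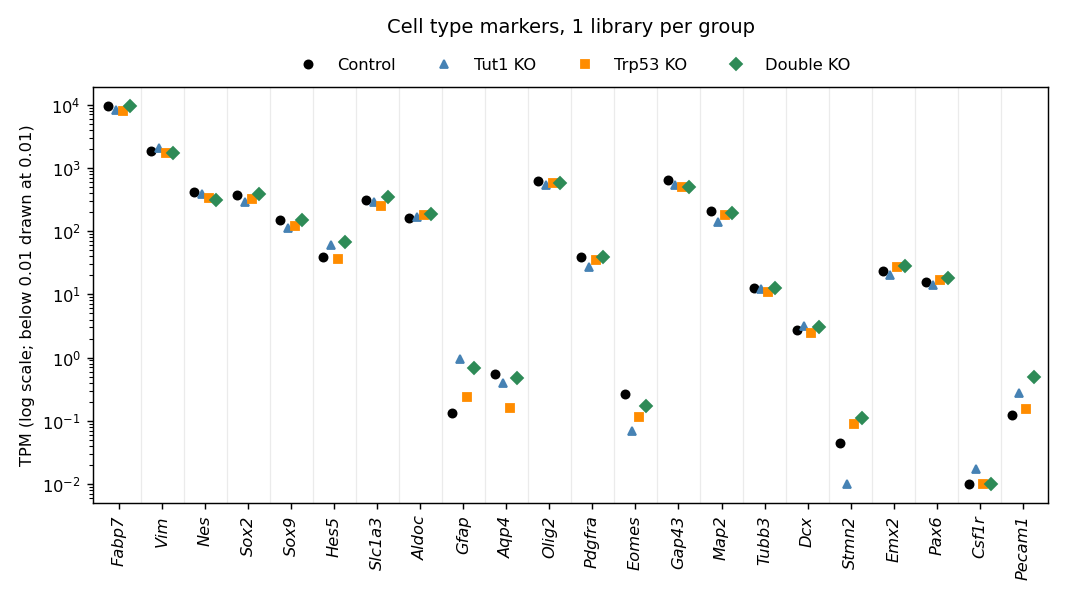
TPM (y axis, log scale) of 22 marker genes in the 4 libraries, 1 symbol per library, with values below 0.01 drawn at 0.01. Fabp7, Vim, Nes, Sox2, Olig2, Gap43 and Map2 lie above 100 TPM in all 4, whereas Gfap, Aqp4, Eomes, Stmn2, Csf1r and Pecam1 lie below 1 TPM in all 4.

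Among factors of brain regions those of the dorsal telencephalon were the highest, with 6 of 12 at 10 TPM or more and a median of 7.96 TPM. Nr2f1 (52.5 TPM), Emx2 (23.1 TPM), Lhx2 (17.9 TPM) and Pax6 (15.5 TPM), which pattern the cortex, were among these, while Emx1, a gene of the dorsal pallium, was listed at 0 in the control and at or below 0.0734 TPM in the others. Of the 11 ventral genes only Gsx1 (10.1 TPM) reached 10 TPM, Gsx2 (1.82 TPM) and Dlx6 (1.60 TPM) passed 1 TPM, and Nkx2-1, Lhx6, Lhx8 and Isl1 were listed at 0. Of 17 genes of midbrain, hindbrain and diencephalon, Tcf7l2 (15.7 TPM), En2 (6.05 TPM) and Gbx2 (5.88 TPM) were the highest. In all, 7 of the 17 reached 1 TPM and 10 did not, against 53.9% of all protein-coding genes reaching it. All 39 Hox genes, which pattern the hindbrain and spinal cord, were below 1 TPM, and 37 of them were listed at 0.

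Other cell types left little trace. Of 53 markers of microglia, endothelium, mural and mesenchymal cells, ependyma, neural crest, erythroid cells and pluripotent cells, 45 were below 1 TPM, 29 were listed at 0 and none reached 10 TPM. The defining genes of microglia Csf1r, Aif1, Cx3cr1, Trem2 and Tmem119 and all 6 erythroid genes were listed at 0. Pecam1, Cldn5 and Kdr of endothelium were at 0.122, 0.0631 and 0.499 TPM. The 8 genes above 1 TPM were led by Foxj1 (4.86 TPM), a factor of ciliated cells, Klf4 (3.73 TPM) and Cfap126 (2.94 TPM), whereas Pou5f1 and Nanog were listed at 0. Among 50 keratin genes only Krt10 (7.14 TPM) passed 1 TPM, and among 1103 olfactory receptor IDs 3 did, the highest at 4.22 TPM.

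**Figure D3:**
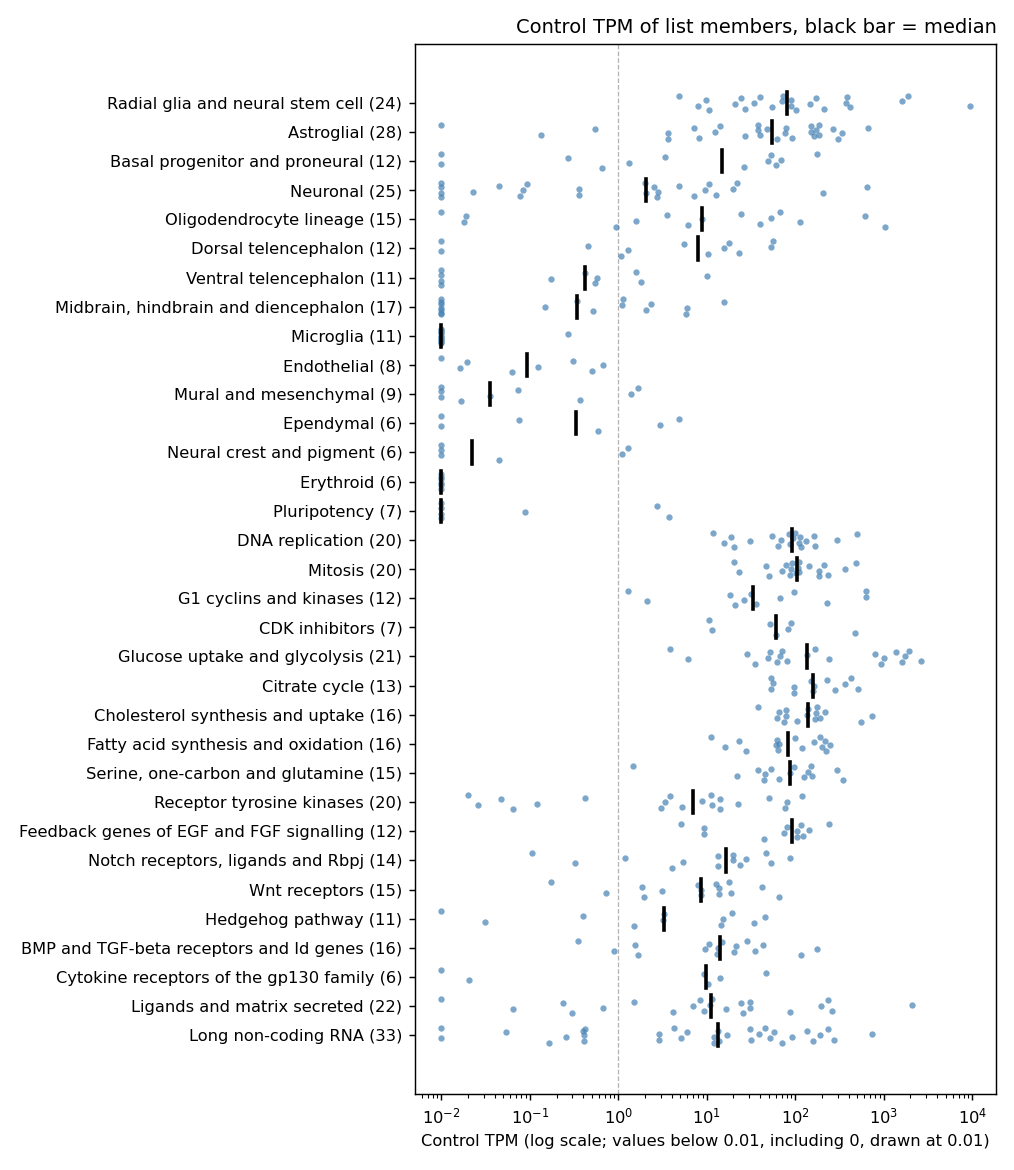
Control TPM (x axis, log scale) of every member of the 33 gene lists, 1 point per gene, with the list median as a black bar and the number of gene IDs in brackets. Values below 0.01 are drawn at 0.01. All genes of the cell cycle and metabolism lists lie above 1 TPM, and markers of other cell types lie below 10 TPM.

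All 20 genes of DNA replication and all 20 of mitosis reached 10 TPM, with medians of 91.3 and 104 TPM. Pcna (499 TPM), the sliding clamp of DNA polymerase, and Rrm2 (297 TPM), a subunit of ribonucleotide reductase, led the first, and Cdc6 (11.7 TPM) and Cdt1 (15.5 TPM), which license origins, were its lowest. Ube2c (490 TPM), the ubiquitin enzyme of mitotic exit, Top2a (361 TPM), a topoisomerase, and Cdc20 (234 TPM), an activator of the same mitotic ligase, led the second, and Mki67, the proliferation marker, was at 77.8, 54.7, 75.5 and 71.8 TPM over the 4 libraries. Of these 40 genes only Fen1 (18.7, 16.4, 42.2 and 48.2 TPM), a nuclease of lagging strand synthesis, and Ccnb1 (185, 92.0, 114 and 145 TPM), cyclin B1, moved 2-fold. The share that moved among all genes compared was 7.76%.

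In G1 the D-type cyclins and Cdk4 prevailed. Ccnd1 was at 632 TPM, Ccnd2 at 228 TPM and Ccnd3 at 96.9 TPM, with Ccne1 at 31.2 TPM and Ccne2 at 26.1 TPM. Cdk4 (635 TPM) stood 499 times above Cdk6 (1.27 TPM), the other kinase partner of D cyclins, and between 348 and 626 times above it in the other libraries. Myc (67.0 TPM) stood 31.7 times above Mycn (2.11 TPM), and 21.1 to 30.5 times above it in the other libraries. Cdk2 was at 35.9, 36.2, 56.5 and 16.1 TPM over the 4 libraries and was the gene of this list that moved 2-fold.

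Inhibitors of these kinases were present at the same time, all 7 at 10 TPM or more. Cdkn1a (p21), a transcriptional target of p53, was the highest of them in the control and was at 477, 605, 196 and 179 TPM over the libraries. The pair of libraries labelled with intact Trp53 was thus above the pair without it. Cdkn2c (88.4 TPM), Cdkn1b (83.6 TPM) and Cdkn2a (51.3 TPM) varied by less than 2-fold. Cdkn2d was at 60.2, 70.2, 86.4 and 20.7 TPM.

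Genes of glucose uptake and glycolysis had 5 of 21 gene IDs above 1000 TPM. Their median of 136 TPM was the value of Gapdh itself, which is in doubt. Eno1 (2616 TPM), enolase, Pgk1 (1943 TPM), phosphoglycerate kinase, Ldha (1738 TPM), lactate dehydrogenase A, Pkm (1613 TPM), pyruvate kinase, and Aldoa (1364 TPM), aldolase A, were these 5. The entry steps were lower, with the glucose transporters Slc2a1 at 79.7 TPM and Slc2a3 at 61.6 TPM, and the hexokinases Hk1 at 67.5 TPM and Hk2 at 49.7 TPM. Ldha stood 7.21 times above Ldhb. Eno1 stood 427 times above the neuronal form Eno2 in the control and 249 to 383 times above it in the other libraries. Eno1 was at 2616, 1977, 2665 and 1497 TPM over the libraries, and its close copy Eno1b, chosen after its values were seen, at 211, 574, 744 and 1035 TPM, so the level of Eno1 is uncertain where reads were divided between them.

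Gapdh, which lies between Aldoa and Pgk1 in the pathway, was listed at only 136 TPM, and here the table itself needs care. It holds 237 Gapdh pseudogenes, and their summed level was 4894 TPM in the control, with 1180 TPM for the highest. Gapdh and these copies together came to 5030, 5015, 6530 and 4973 TPM over the 4 libraries, of which the parent held 2.71% in the control. The parent gene alone (136, 179, 242 and 117 TPM) moved 2-fold over the libraries while the sum did not. Pseudogenes of all kinds held 10.6% of the TPM of the table, and the share kept by a parent gene differed widely. Hmgb2 kept 99.4% of the sum with its 32 pseudogenes, and Phgdh 96.8% of the sum with its 18. These 3 parents were chosen after their values were seen.

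All 81 gene IDs of the metabolism lists reached 1 TPM. The 13 citrate cycle genes had a median of 160 TPM, led by Mdh2 (507 TPM), malate dehydrogenase, and Cs (430 TPM), citrate synthase. The 16 genes of cholesterol synthesis and uptake had a median of 138 TPM, led by Hmgcs1 (737 TPM), the synthase before the rate-limiting step, and Fdps (551 TPM). Phgdh (344 TPM) and Psat1 (295 TPM), which begin serine synthesis, led the serine, one-carbon and glutamine list, whereas the cystine transporter gene Slc7a11 was at 1.46 TPM. The median of that list was 87.6 TPM, and 14 of its 15 members reached 10 TPM.

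In fatty acid metabolism the desaturases Fads2 (250 TPM), Fads1 (218 TPM) and Scd1 (198 TPM) were the highest along with Acadl (220 TPM), an enzyme of oxidation. A pair of the genes was unstable. Scd2, the brain stearoyl-CoA desaturase, was at 64.2, 720, 81.8 and 47.3 TPM over the 4 libraries, so only the library labelled Tut1 KO was high. Scd2 shares exonic bases with another gene. Elovl2, an elongase of polyunsaturated fatty acids, was at 27.7, 0.434, 23.4 and 2.37 TPM, low in both libraries labelled as lacking Tut1.

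The receptors for the growth factors of the medium were higher than their relatives. Fgfr1 (79.9 TPM) stood 26.4 times above Fgfr2 (3.03 TPM), Fgfr3 was at 14.1 TPM and Fgfr4 at 0.0262 TPM. Egfr (50.3 TPM) stood above Erbb2 (8.79 TPM), Erbb4 (3.82 TPM) and Erbb3 (0.119 TPM). Over the libraries Fgfr1 was at 78.2 to 84.3 TPM and Egfr at 42.5 to 51.1 TPM, while Erbb4 was at 0.0613 TPM in the Tut1 KO library and at 2.82 to 3.82 TPM in the other three. Ddr1 (118 TPM), a collagen receptor, and Ntrk2 (77.1 TPM), the receptor for BDNF, were the other high receptor tyrosine kinases, and Met, Ret and Alk were below 1 TPM. Counted as a list, 14 of 20 kinases reached 1 TPM, with a median of 7.02 TPM.

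Feedback genes that EGF and FGF signals are known to induce had a median of 92.8 TPM, and all 12 reached 1 TPM. Spry2 (239 TPM), Etv5 (144 TPM), Dusp6 (123 TPM), Spry4 (117 TPM), Spry1 (106 TPM) and Etv4 (105 TPM) were above 100 TPM. The lowest were Il17rd (5.04 TPM), Errfi1 (9.26 TPM) and Dusp4 (9.37 TPM). Each of the 10 members high enough for the comparison stayed within 2-fold, with Spry2 at 197 to 239 TPM over all 4 libraries. Among all 8609 genes compared 92.2% did so.

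Notch signalling was represented by receptors, ligands, a nuclear partner and effectors. Notch1 (28.0 TPM) and Notch3 (13.2 TPM) were the highest receptors and Notch4 (0.321 TPM) the lowest. Dll1 (46.7 TPM) and Dll3 (19.6 TPM) were the main ligands, Lfng (87.6 TPM) modifies the receptors, and Rbpj (23.7 TPM) is the nuclear partner of Notch. The effectors Hes1 (90.4 TPM), Hes5 (39.6 TPM) and Hey1 (34.5 TPM) were counted with the stem cell genes. All 9 genes compared of the receptor and ligand list stayed within 2-fold, where 92.2% of all genes compared did.

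Among Wnt receptors Ryk (64.7 TPM) and Fzd9 (42.0 TPM) were the highest, and 13 of 15 reached 1 TPM. In the Hedgehog pathway Smo (45.4 TPM), Gas1 (34.3 TPM), Sufu (19.3 TPM) and Ptch1 (15.4 TPM) were present, whereas Gli2 was at 1.49 TPM, the ligand Shh at 0.0314 TPM, and Gli1 was listed at 0. Gli1 was at or below 0.102 TPM in the other libraries. Ptch1 and Gli1 are both known targets of the pathway, and they differed in level.

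Id genes, targets of BMP signals, differed widely among themselves, with Id3 at 175 TPM, Id2 at 116 TPM, Id1 at 21.6 TPM and Id4 at 0.884 TPM. Id4 was at 0.843 to 1.50 TPM in the other libraries and Id3 at 168 to 190 TPM. The receptors Bmpr1a (42.8 TPM), Bmpr2 (20.4 TPM) and Bmpr1b (13.1 TPM) were present, and Tgfbr2 was at 1.67 TPM. For cytokines of the gp130 family, Cntfr (46.3 TPM), Lifr (14.2 TPM) and Il6st (10.4 TPM) were present, whereas Il6ra was at 0.0207 TPM and Osmr was listed at 0.

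The cells also transcribed ligands and matrix genes. Ptn (rank 47) stood 504 times above Mdk (4.10 TPM), the other member of its family, and 331 to 559 times above it in the other libraries. Vegfa (257 TPM), Bcan (232 TPM), Ncan (194 TPM) and Bmp7 (87.7 TPM) followed, Bcan and Ncan being brain chondroitin sulphate proteoglycans. Of the ligands of the receptors above, Hbegf (16.3 TPM), Tgfa (9.35 TPM) and Fgf1 (8.30 TPM) were higher than Fgf2 (1.50 TPM) and Egf (0.671 TPM). Bmp4 was listed at 0, and Igf1 and Igf2 were at 0.296 and 0.0641 TPM.

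Receptors of neurotransmitters were sparse. Of 111, 30 reached 1 TPM, against 53.9% of all protein-coding genes, 81 were below it and 11 were at 10 TPM or more. Ionotropic glutamate receptors were the exception, with 13 of 18 at 1 TPM or more, led by Gria2 (56.8 TPM), Grik5 (40.4 TPM) and Gria3 (27.2 TPM). Gria1 was at 0.115 TPM, so that among AMPA receptor subunits Gria2 stood 494 times above Gria1, and 72.6 to 408 times above it in the other libraries. Of 19 GABA-A subunits 4 passed 1 TPM. Chrna4 (24.9 TPM) and Chrm3 (11.8 TPM) were the acetylcholine receptors above 1 TPM, and Adrb1 (8.44 TPM) and Htr1b (1.19 TPM) the monoamine receptors above it. Adora1 (18.3 TPM), an adenosine receptor, led the purinergic family.

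Some of these receptors were unstable. Grm5, a metabotropic glutamate receptor, was at 4.83, 26.7, 32.2 and 3.19 TPM over the 4 libraries, the same split of libraries as Xist. P2rx7, an ATP-gated channel, was at 6.88, 35.2, 5.47 and 19.4 TPM. Gria4 was at 10.2 TPM in the control and 21.2 to 24.8 TPM in the other libraries.

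In 3 families of adhesion and guidance receptors, 1 member stood well above its relatives. Itgb1 (278 TPM), the common integrin beta chain, was followed by Itgb5 (52.0 TPM) and Itgb8 (28.0 TPM). Of 21 integrins 10 reached 1 TPM and 11 did not, against 53.9% of all protein-coding genes reaching it. Plxnb2 (137 TPM) was followed by Plxnb1 (21.0 TPM), although 10 of 11 plexins and neuropilins passed 1 TPM. Adgrg1 (218 TPM), a receptor whose loss disturbs cortical development, was followed by Adgrb2 (59.5 TPM). Eph receptors (8 of 14 at 1 TPM or more) and ephrins (7 of 8) were all below 20 TPM, the highest being Ephb3 (15.0 TPM) and Efnb2 (14.2 TPM). Of voltage-gated sodium channels Scn8a (11.1 TPM) and Scn2a (2.07 TPM) passed 1 TPM.

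**Figure D4:**
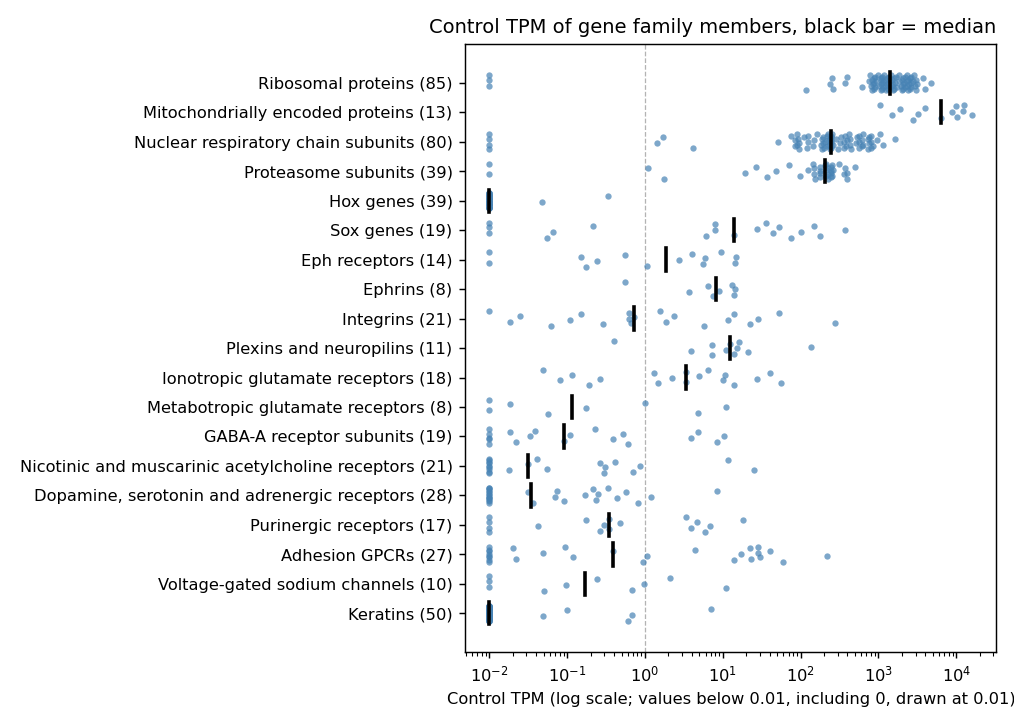
Control TPM (x axis, log scale) of the members of 19 gene families, 1 point per gene ID, with the family median as a black bar. Values below 0.01 are drawn at 0.01. Most ribosomal, respiratory and proteasome genes lie above 100 TPM, whereas receptor families spread from 0 to a few high members.

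Long non-coding RNAs held 1.26% of the TPM of ranked genes, and 113 of them reached 10 TPM. The highest by name were Gas5 (737 TPM), a host gene of small nucleolar RNAs, Erdr1 with 2 gene IDs (629 and 455 TPM), Snhg8 (274 TPM) and Gt(ROSA)26Sor (238 TPM), with 5 predicted or clone-named genes above the last of these. Pantr1 (236 TPM), a neural lncRNA, and the host genes Snhg6 (190 TPM) and Snhg1 (159 TPM) followed, and Malat1, a nuclear RNA, was at 136 TPM. Neat1 (0.412 TPM), Meg3 (0.403 TPM) and Rian (0.412 TPM) were below 1 TPM. Of the 33 listed lncRNA genes 22 share exonic bases with another gene on the same strand, Gas5, Snhg1 and Malat1 among them, and their values are uncertain. Erdr1, Gt(ROSA)26Sor and Malat1 were unstable. The main Erdr1 ID was listed at 0 in the Tut1 KO library and was at 0.241 and 64.9 TPM in the others, and Gt(ROSA)26Sor was at 42.7 to 54.1 TPM outside the control. Malat1 was at 136, 74.4, 168 and 87.8 TPM.

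The control was then set against the other libraries as a whole. A gene was counted as moved where its highest and lowest values over the 4 libraries were at least 1 apart on the log2(TPM + 1) scale, that is about 2-fold, and where 1 or more of the libraries had it at 10 TPM or higher. Of 8609 genes so compared, 668 (7.76%) moved and 7941 stayed within 2-fold. The scale understates changes of low genes. Of the members of the 33 lists, 301 were compared and 28 moved, and of the 100 highest genes 1 moved. The 3 other libraries all differ from the control in treatment and in the labelled deletion, and the Tut1 KO and Trp53 KO also in sex chromosomes, and with 1 culture each these cannot be told apart.

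By list, 0 of 12 compared genes of BMP signalling, 0 of 9 Wnt receptors, 0 of 35 proteasome subunits and 2 of 82 ribosomal proteins moved. Among the others, 3 of 10 adhesion GPCRs, 2 of 7 CDK inhibitors, 2 of 7 neuronal genes, 2 of 13 citrate cycle genes and 3 of 22 astroglial genes moved. These counts are small, and no list was tested against the background share.

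The 5 highest protein-coding genes that moved were Rpl17, mt-Nd4l, Hnrnpu, Rps27a and Rps27rt. Hnrnpu, an RNA-binding protein of the nucleus, was at 904, 499, 287 and 304 TPM, so the control was the highest. Rps27a was at 875, 2420, 1145 and 1718 TPM, lowest in the control, and Rps27rt, a retrogene of Rps27, was at 652, 121, 135 and 264 TPM, highest in the control. Rpl17 was at 1538, 851, 1715 and 1522 TPM, and mt-Nd4l, which overlaps a neighbour, at 1051, 500.4, 731 and 747 TPM.

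**Figure D5:**
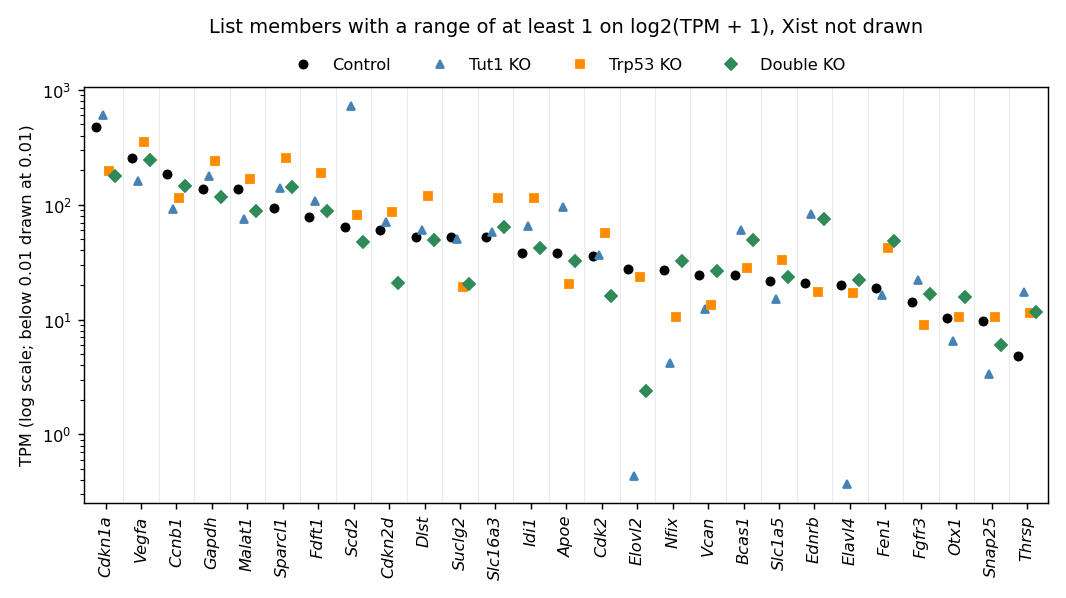
TPM (y axis, log scale) in the 4 libraries of the 27 list members other than Xist whose range was at least 1 on the log2(TPM + 1) scale, ordered by control TPM. Cdkn1a is high in the control and Tut1 KO libraries, Scd2 is high in the Tut1 KO library alone, and Elovl2 and Elavl4 fall below 1 TPM in the Tut1 KO library.

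On the log2(TPM + 1) scale the control stood at least 1 above each of the other 3 libraries for 29 of the 8609 genes and at least 1 below each of them for 33. Both Erdr1 IDs, Gt(ROSA)26Sor and Rps27rt were among the first and Thrsp among the second. The following examples were chosen after their values were seen. Macroh2a2, a histone variant gene, was at 0.160 TPM in the control and at 84.1 to 95.2 TPM in the others, and Rac1, a small GTPase of the cytoskeleton, was at 37.8 TPM against 234 to 263 TPM. Myef2, a repressor of myelin gene transcription, was at 167 TPM in the control and at 24.6 to 42.7 TPM in the others. Cav1, the caveolar coat protein, was at 28.1 TPM against 2.15 to 5.66 TPM, and Pfkfb3, which sets the pace of glycolysis, at 50.3 TPM against 7.46 to 12.2 TPM. The control also received the empty particle and no Cre mRNA, and whether treatment, culture or library set it apart was not tested.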

How the data were processed

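RNA was extracted from the cultures with Trizol, and per the labels libraries were made with a stranded mRNA kit for short reads. The series' own text speaks of long reads instead, and which of them gave the table was not settled. The submitters' processing notes name Trimmomatic, HISAT2, StringTie and the build mm10, without versions. The authors deposited 1 table of TPM for 55487 gene IDs in 4 libraries. TPM keeps no depth, so no counting error could be given. How reads of overlapping or near-identical genes were divided is not given in the sources used here.

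Protein-coding and lncRNA genes were ranked by control TPM. The 33 gene lists (2 listed symbols, Ntrk3 and Hotairm1, had no row) and 20 families, defined by symbol patterns, were chosen with earlier results of these data known. Named were the 20 highest protein-coding and 5 highest lncRNA genes (predicted and clone names were only counted), list members, and the 5 highest protein-coding genes that moved, with Tut1 and Trp53. Further genes are said to be chosen afterwards, and the other genes of the 100 highest and the pairs of genes set in ratio were chosen in that way too. Stability was the range of log2(TPM + 1) over libraries (pseudocount 1, TPM of at least 10 in 1 library, threshold 1). The step was tested on simulated data, made from the control values with added noise and known changes. The simulation held no reads shared between genes and no differences of depth or culture, so it checks the counting rule only. Coordinates and shared exons came from GENCODE M21 (GRCm38), which held 99.9% of the ranked genes. Alternatives were other TPM minima (0.5, 5 and 10), pseudocounts of 0.1 and 5, other denominators, equal medians, quantile normalization and the other libraries. Some genes of the lists are not reported here by name. No test was run, since each group was 1 library. Python 3.11.15, numpy 2.4.6, pandas 2.3.3 and matplotlib 3.10.9 were used.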

Additional observations from a re-analysis of the deposited data

How the results depend on the processing

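With 1 library per group, neither replicates nor depth set a limit on the error of any value, and no test was run. No paired analysis was possible because each group had 1 library and no result came from a test. The count of expressed genes moved by more than 1.5 times where the TPM minimum was 10 (8155 genes) and not where it was 0.5 or 5. The share held by the 100 highest genes stayed within 1.5 times under the 3 other denominators. Rescaling to a total without mitochondrially encoded and ribosomal protein genes multiplied every level by 1.56, which by construction raised the list medians to 126 TPM for radial glia and neural stem cell genes, 85.2 for astroglial, 3.21 for neuronal, 13.6 for oligodendrocyte lineage, 161 for mitosis, 212 for glycolysis and 10.9 for receptor tyrosine kinases. With members of at least 1 TPM alone, the medians were 8.43 TPM for neuronal genes, 39.5 for the oligodendrocyte lineage and 12.8 for receptor tyrosine kinases, since low members were left out. In the other libraries the neuronal median was 1.18 TPM in the Tut1 KO and the glycolysis median 223 TPM in the Trp53 KO library, and the cause was not tested. Over all 53 lists and families, the number of medians within 1.5 times of the control was 44 (Tut1 KO), 46 (Trp53 KO) and 43 (Double KO). Lists with a median of at least 10 TPM numbered 17 in the control and 17 to 23 under the alternatives. Genes within 2-fold numbered 11917 with a TPM minimum of 1 and 30699 with none, because more genes were compared (13083 and 31865), and 7877 to 8163 with another pseudocount, equal medians or quantile normalization.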

Other observations

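Values outside the ranked genes were large enough to be listed. In the control, processed pseudogenes held 5.47% of the TPM of the whole table, unprocessed pseudogenes 4.39% and genes of the miRNA class 1.84%, whereas lncRNA genes held 1.09%. The ranked genes held 86.7% of the TPM in the control and 86.0 to 86.8% in the other libraries. The separate classes were summed for the control only.

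Several genes with housekeeping roles that stood apart in the control were chosen with their values in view. Eif5, a translation initiation factor, was at 144 TPM in the control and at 22.8 to 41.8 TPM in the other libraries, and it shares exonic bases with another gene. Arl2bp was at 201 TPM against 32.0 to 42.1 TPM, and Naa50, a subunit of an N-terminal acetyltransferase, at 143 TPM against 40.8 to 63.6 TPM. In the opposite direction, Ywhaq, a 14-3-3 protein gene, was at 206 TPM in the control against 540 to 626 TPM, Prdx6, an antioxidant enzyme gene, at 109 TPM against 249 to 263 TPM, and Apc, a regulator of Wnt signalling, at 2.99 TPM against 22.9 to 37.3 TPM. The other 3 libraries lay closer to one another than to the control for each of these genes, which the choice of genes largely fixed in advance. The cause of the gap was not tested.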
